A study of Mus musculus with 6 samples.

Results

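Transcripts of the mitochondrial respiratory chain and ATP synthase were compared between mouse prostate epithelial cancer cells given a PIM1 lentivirus (PIM1, 3 arrays) and the same cells given an empty-vector lentivirus (EV, 3 arrays). The gene set was chosen by name. It holds every gene with a probe set of its own whose symbol marks a nuclear-encoded subunit of complex I (Nduf), II (Sdh), III (Uqcr and Cyc1), IV (Cox4 to Cox8) or V (Atp5), together with cytochrome c (Cycs) and citrate synthase (Cs), and it leaves out pseudogenes. This gave 81 of the 22180 genes tested, each read by its brightest probe set. Ndufa4 and Ndufa4l2 are counted with complex IV, where the NDUFA4 protein belongs.

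Both groups came from Rb1F/F:Trp53F/F:PB-Cre4 mice, in which Cre under a probasin promoter deletes Rb1 and Trp53 in prostate epithelium, so the controls carry both deletions too. The cells grew in medium with 2.5% charcoal stripped serum and hormone and growth factor supplements. The labels give no age, clone, passage or species of the PIM1 insert, and they name no separate cultures or infections for the arrays of a group. All p-values here thus rest on the scatter of these 3 and 3 samples, which can be technical. Values are log2 signals, differences are PIM1 minus EV on the log2 scale, and a gene was called when limma's adjusted p over all genes tested was under 0.05.

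The respiratory chain passes electrons from NADH and succinate through ubiquinone and cytochrome c to oxygen and pumps protons across the inner mitochondrial membrane, and ATP synthase uses the returning protons to make ATP. Complexes I, III, IV and V are built from subunits of nuclear and of mitochondrial DNA, complex II from nuclear genes alone. Prostate epithelium is known for holding back citrate from oxidation, a trait that prostate cancers often lose.

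Pim1 read 5.26, 6.25 and 5.23 in EV and 7.11, 6.89 and 6.97 in PIM1 (difference 1.41, adjusted p = 0.00456 by limma), and the groups did not overlap. The label of prostate epithelium was only in part borne out by its markers. Krt18 read 9.14 ± 0.06 in EV and 4.90 ± 0.12 in PIM1 (SD, n = 3), while Epcam lay at 2.50 and 2.35. Of 6 measured epithelial markers 0 rose and 2 fell, and of 8 fibroblast markers 6 rose and 1 fell, with differences from -0.47 to 5.48. The mean log2 signal of the epithelial markers was 4.51 to 4.65 in EV and 3.57 to 3.66 in PIM1, and that of the fibroblast markers was 5.64 to 5.72 and 7.29 to 7.36. Of the epithelial markers Krt18 and Cdh1 were the 2 that fell, and the other 4 (Epcam, Krt8, Krt14 and Trp63) were not called. Of 3 prostate luminal markers Hoxb13 rose from 4.99 to 5.57 (adjusted p = 0.00377 by limma), and Pbsn and Tmprss2 were not called. The part of these markers in the results on respiratory genes was not tested. Fewer cells of a type and less RNA per cell cannot be told apart in such samples.

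Respiratory genes did not move as a block. Of the 81 members 15 rose, 13 fell and 53 were not called. Over all 22180 genes 27% were called, 16.1% higher and 10.9% lower, and the members' shares were 18.5% and 16%. Among the 5554 genes in the members' own interquartile range of brightness 30.1% were higher and 16.1% lower, and in the 11090 brightest genes the shares were 29.4% and 14.7%. The median difference of the members was 0.02 (quartiles -0.27 and 0.25), against -0.05 for all genes and 0.10 for the genes of like brightness. The share of members that rose was thus near that of all genes and below that of genes equally bright, and the share that fell was near that of genes equally bright. No overlap between EV and PIM1 arrays was seen for 43 of the 81 members (53.1%), for 43.2% of all genes and for 66.7% of the genes of like brightness. The median signal over members was 7.79 to 7.89 on the EV arrays and 7.54 to 7.68 on the PIM1 arrays. That of all genes averaged 4.01 in both groups. For complex V it averaged 8.02 in EV and 7.62 in PIM1, and for complex IV 5.92 and 6.31. The complex IV median was the signal of Cox7a2l on each of the 6 arrays. The median differences were 0.09 for complex V and 0.002 for complex IV. A median of signals can thus move otherwise than the median of differences.

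**Figure D1:**
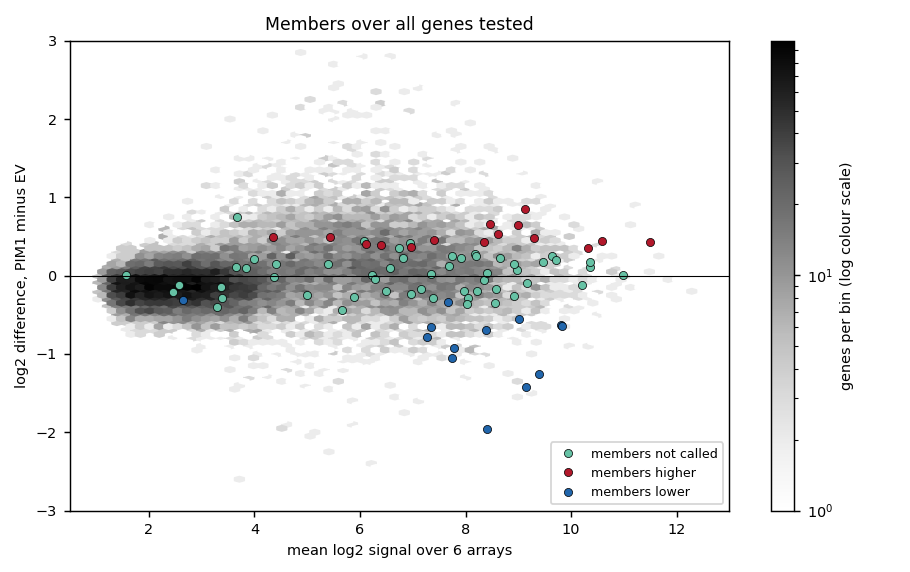
Difference PIM1 minus EV (log2, vertical axis) against the mean log2 signal over the 6 arrays (horizontal axis) for all genes tested (grey, log colour scale) and for the members (circles). The called members lie on both sides of 0, from -1.96 for Cox7b to 0.86 for Ndufs7.

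**Figure D2:**
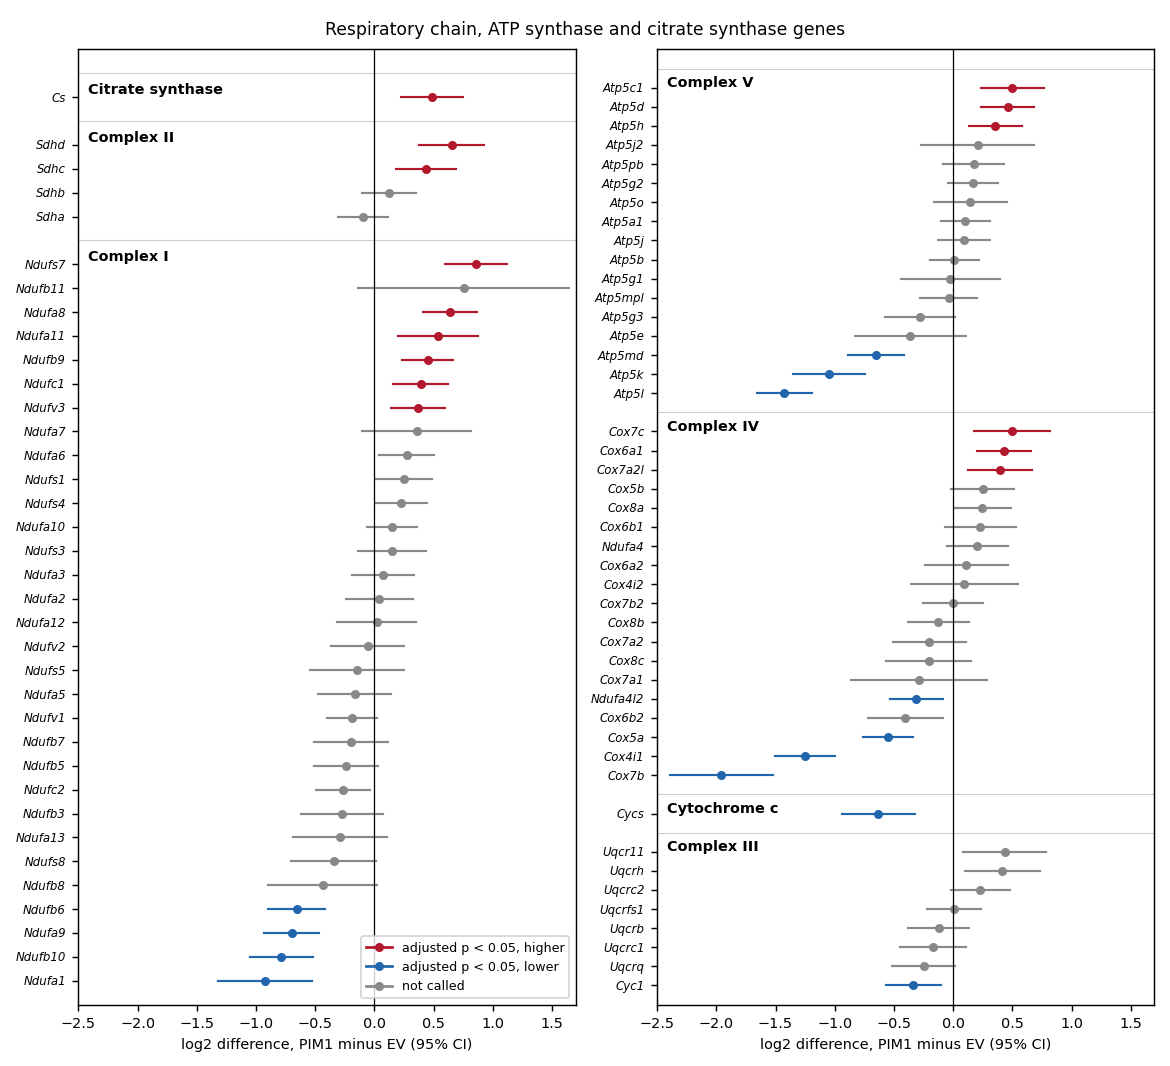
Difference PIM1 minus EV with its 95% confidence interval (log2, horizontal axis) for each of the 81 members, grouped by complex. Red marks the 15 members called higher and blue the 13 called lower. Complexes I, IV and V hold both colours.

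In complex V, Atp5l, Atp5k and Atp5md fell and Atp5d, Atp5c1 and Atp5h rose. ATP synthase has a catalytic F1 head, a c-ring that turns in the membrane, a peripheral stalk that holds the head still, and small membrane subunits that join ATP synthases into dimers along the cristae. Of its 17 measured members 3 rose, 3 fell and 11 were not called, and the 3 that fell were among the 5 small membrane subunits. The shares called, 17.6% in each direction, stand beside 16.1% higher and 10.9% lower over all genes. Among genes of like brightness 30.1% were higher and 16.1% lower. Differences between the modules were not tested. Atp5l, which encodes subunit g, read 9.83, 9.88 and 9.88 in EV and 8.52, 8.48 and 8.31 in PIM1. The EV arrays lay close together and all above the PIM1 arrays. Atp5l fell by 1.43 (SE 0.0996, 2.69-fold, adjusted p = 2.81e-05 by limma).

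Atp5k, which encodes subunit e, the partner of subunit g in the dimer contact, read 8.48, 8.25 and 8.05 in EV and 7.33, 7.18 and 7.13 in PIM1. All 3 PIM1 arrays were lower, and Atp5k fell by 1.05 (SE 0.132, adjusted p = 0.000689). Atp5md, the subunit also called DAPIT, read 10.20, 10.09 and 10.16 in EV and 9.52, 9.61 and 9.38 in PIM1, again without overlap, and fell by 0.65 (SE 0.103, adjusted p = 0.00236). The other two small membrane subunits were not called. Atp5mpl differed by -0.04 (95% confidence interval -0.28 to 0.20) and Atp5j2, subunit f, by 0.21 (-0.27 to 0.69).

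Of the 5 genes of the F1 head and central stalk 2 rose (40%) and 0 fell, beside 16.1% and 10.9% over all genes. For genes of like brightness these shares were 30.1% and 16.1%. Atp5b, the catalytic beta subunit, read 10.98, 10.98 and 10.99 in EV and 11.01, 11.01 and 10.96 in PIM1. The arrays overlapped, and the difference of 0.01 had a confidence interval of -0.20 to 0.21. Atp5a1, the alpha subunit, differed by 0.10 (-0.10 to 0.31) and was not called. Atp5d, subunit delta of the central stalk, read 7.22, 7.10 and 7.18 in EV and 7.67, 7.68 and 7.54 in PIM1. The PIM1 arrays were all higher, and Atp5d rose by 0.46 (SE 0.0974, adjusted p = 0.00949). Atp5c1, the gamma subunit that turns inside the head, read 5.11, 5.20 and 5.22 in EV and 5.61, 5.87 and 5.54 in PIM1. It was likewise higher on each PIM1 array and rose by 0.50 (SE 0.116, adjusted p = 0.0143). The Atp5c1 call was lost after quantile normalization (adjusted p = 0.0502) and without PIM1 replicate 2 (0.0547). Atp5e, subunit epsilon, differed by -0.36 with EV arrays spread from 7.90 to 8.57 and was not called.

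The peripheral stalk had positive differences for each of its 4 genes, and 1 was called higher (25%), beside 16.1% over all genes. Atp5h, subunit d, read 10.14, 10.09 and 10.18 in EV and 10.39, 10.52 and 10.57 in PIM1. The groups did not overlap, and Atp5h rose by 0.35 (SE 0.0974, adjusted p = 0.0288). That call was lost when EV replicate 1 or 2 or any 1 of the 3 PIM1 arrays was left out (adjusted p = 0.0507 to 0.0987). Atp5pb, Atp5j and Atp5o differed by 0.17, 0.09 and 0.14, and the sign of Atp5j turned after quantile normalization and cyclic loess. The c-ring subunit is encoded by Atp5g1, Atp5g2 and Atp5g3, which make the same mature protein. None of them was called. Atp5g1 read 4.25, 4.45 and 4.45 in EV and 4.73, 4.39 and 3.98 in PIM1, and Atp5g2 read 10.27, 10.31 and 10.27 in EV and 10.48, 10.38 and 10.49 in PIM1. Atp5g3 read 7.56, 7.35 and 7.66 in EV and 7.19, 7.43 and 7.11 in PIM1. Atp5g2 alone had all PIM1 arrays above the EV arrays, whereas the arrays overlapped for Atp5g1 and Atp5g3. The differences were 0.17 (-0.04 to 0.38) for Atp5g2, -0.28 (-0.58 to 0.01) for Atp5g3 and -0.02 (-0.44 to 0.40) for Atp5g1. Atp5g2 passed with trended and robust variance (adjusted p = 0.0224) and with the mean over its probe sets (0.0269). The close coding sequences of these genes can share signal.

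Cytochrome c oxidase, complex IV, passes electrons to oxygen at a core made from mitochondrial DNA, which nuclear subunits surround. Of 19 members 3 rose (15.8%), 4 fell (21.1%) and 12 were not called, beside 16.1% higher and 10.9% lower over all genes. The 11 ubiquitous subunits held 3 rises and 3 falls (27.3% each), and the 8 restricted isoforms 0 rises and 1 fall (12.5%). In the members' interquartile range of brightness 30.1% of genes were higher and 16.1% lower, and the restricted isoforms lie below that range. Cox7b, a small membrane subunit, showed the largest fall of all members. It read 9.49, 9.42 and 9.26 in EV and 7.66, 7.66 and 6.98 in PIM1, with PIM1 replicate 3 the lowest of the 6 arrays. Cox7b fell by 1.96 (SE 0.189, 3.88-fold, adjusted p = 0.000167 by limma). A much dimmer probe set of the same gene, at 4.004 in EV and 3.984 in PIM1, had a difference of -0.02 (adjusted p = 0.970 with all probe sets tested).

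Cox4i1, the ubiquitous form of the regulatory subunit 4, read 10.00, 10.13 and 9.92 in EV and 8.73, 8.91 and 8.66 in PIM1. The groups lay more than 1 unit apart without overlap, and Cox4i1 fell by 1.25 (SE 0.111, 2.38-fold, adjusted p = 0.000108). Cox5a, which assembles with subunit 4 early on, read 9.31, 9.25 and 9.28 in EV and 8.70, 8.79 and 8.70 in PIM1, all PIM1 arrays lower, and fell by 0.55 (SE 0.0924, adjusted p = 0.0032). Cox6a1, the common form of subunit 6a, moved the other way. It read 11.23, 11.23 and 11.40 in EV and 11.70, 11.79 and 11.66 in PIM1, all PIM1 arrays higher, and rose by 0.43 (SE 0.10, adjusted p = 0.0147). The Cox6a1 call was lost without PIM1 replicate 1 (adjusted p = 0.0507) or 2 (0.0655).

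The other rises in complex IV had larger adjusted p-values. Cox7c, a small membrane subunit, read 4.28, 4.17 and 3.84 in EV and 4.69, 4.65 and 4.44 in PIM1. The EV arrays were all lower, EV replicate 3 the lowest. Cox7c rose by 0.50 (SE 0.140, adjusted p = 0.0312), and the call was lost without EV replicate 3 or PIM1 replicate 1 or 2 (0.0721, 0.108 and 0.102). Cox7a2l, which helps join complexes III and IV into supercomplexes, read 5.84, 5.96 and 5.95 in EV and 6.49, 6.31 and 6.14 in PIM1, without overlap, and rose by 0.40 (SE 0.117, adjusted p = 0.0382). Its call was lost after quantile normalization (0.199) and cyclic loess (0.109), without any 1 of the EV arrays (0.0626 to 0.0942) and without PIM1 replicate 1 (0.136) or 2 (0.104). Cox8a, Cox5b, Cox6b1 and Ndufa4 differed by 0.25, 0.25, 0.23 and 0.21 and Cox7a2 by -0.20, and none of these was called.

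Isoforms known from muscle, lung, testis or hypoxic cells gave low signals in both groups. Cox4i2, the lung and hypoxia form of subunit 4, read 3.47, 4.0 and 3.88 in EV and 4.25, 3.77 and 3.61 in PIM1. Those ranges overlapped, and the difference was 0.10 (95% confidence interval -0.36 to 0.55), beside the fall of Cox4i1. Cox6a2, a heart and muscle form, read 3.86, 3.61 and 3.30 in EV and 3.70, 3.58 and 3.83 in PIM1. Cox7a1 of the same tissues read 3.60, 3.00 and 4.02 in EV and 3.44, 3.35 and 2.96 in PIM1, and Cox8b read 2.76, 2.61 and 2.52 in EV and 2.37, 2.57 and 2.57 in PIM1. The arrays overlapped for each of these genes, and the differences were 0.11, -0.29 and -0.12. Among forms known from testis, Cox6b2 read 3.22, 3.60 and 3.63 in EV and 3.15, 2.95 and 3.15 in PIM1. Cox7b2 read 1.41, 1.66 and 1.64 in EV and 1.57, 1.496 and 1.65 in PIM1, and Cox8c read 2.29, 2.91 and 2.50 in EV and 2.35, 2.39 and 2.34 in PIM1. Cox6b2 was lower on each PIM1 array, and the arrays overlapped for Cox7b2 and Cox8c. The differences were -0.40, 0.00 and -0.21, and Cox6b2 passed without EV replicate 1 (-0.53, adjusted p = 0.0161). Ndufa4l2, a paralogue of Ndufa4 induced by hypoxia, read 2.86, 2.70 and 2.85 in EV and 2.49, 2.47 and 2.52 in PIM1. The PIM1 arrays were all lower, and Ndufa4l2 fell by 0.31 (SE 0.0961, adjusted p = 0.0454). The Ndufa4l2 call was lost without EV replicate 1 or 3 or any 1 of the PIM1 arrays (0.0791 to 0.134), after median centring (0.0581) and with trended and robust variance (0.106), and quantile normalization gave -0.18 (0.234) and cyclic loess -0.18 (0.235). Whether these 8 signals lie above background was not tested.

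**Figure D3:**
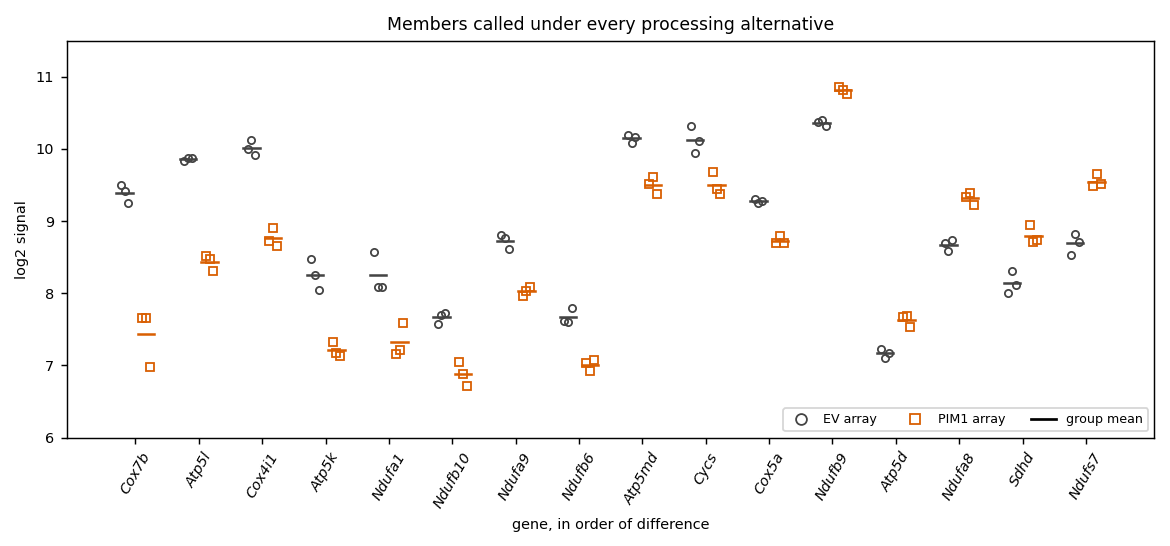
Log2 signal (vertical axis) on each EV array (circles) and PIM1 array (squares), with group means as lines, for the members that were called the same way under each of the 14 processing alternatives in which they were tested. They are 11 members lower and 5 higher in PIM1, ordered from the largest fall (Cox7b) to the largest rise (Ndufs7), and in each the arrays of the groups do not overlap.

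Complex I, the NADH dehydrogenase, has a matrix arm that oxidizes NADH and a membrane arm that pumps protons. Of 31 members 6 rose (19.4%), 4 fell (12.9%) and 21 were not called, beside 16.1% higher and 10.9% lower over all genes. Among genes of like brightness 30.1% were higher and 16.1% lower. The median difference of the complex I members was 0.02. This median was -0.05 after quantile normalization, -0.04 after cyclic loess, -0.0804 without PIM1 replicate 1 and 0.14 without PIM1 replicate 3. Ndufs7, which holds the iron-sulfur cluster next to ubiquinone, read 8.53, 8.82 and 8.72 in EV and 9.48, 9.65 and 9.51 in PIM1. The PIM1 arrays were all higher, and Ndufs7 rose by 0.86 (SE 0.112, 1.81-fold, adjusted p = 0.000857 by limma). It was the largest rise among the members and the only call among the 4 subunits of the ubiquinone module. The cluster-bearing neighbour Ndufs8 differed by -0.34 (-0.70 to 0.02), Ndufs3 by 0.14 and Ndufa5 by -0.17.

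Membrane arm subunits moved both ways, 4 rising (23.5%) and 3 falling (17.6%) among 17, beside 16.1% and 10.9% over all genes. For genes of like brightness these shares were 30.1% and 16.1%. Ndufa1, a small subunit needed to build the arm, read 8.57, 8.08 and 8.09 in EV and 7.16, 7.21 and 7.59 in PIM1 and fell by 0.93 (SE 0.173, adjusted p = 0.00521). Ndufb10 read 7.57, 7.70 and 7.73 in EV and 7.04, 6.88 and 6.72 in PIM1 and fell by 0.79 (SE 0.115, adjusted p = 0.00155). Ndufb6 read 7.61, 7.59 and 7.79 in EV and 7.04, 6.92 and 7.07 in PIM1 and fell by 0.66 (SE 0.104, adjusted p = 0.00229). In these 3 genes all PIM1 arrays were the lower ones. Against these, Ndufa8, an accessory subunit facing the intermembrane space, read 8.69, 8.59 and 8.74 in EV and 9.33, 9.39 and 9.23 in PIM1 and rose by 0.64 (SE 0.0996, adjusted p = 0.0021). Ndufb9 read 10.38, 10.40 and 10.31 in EV and 10.86, 10.82 and 10.76 in PIM1 and rose by 0.45 (adjusted p = 0.00843). Ndufa11 read 8.18, 8.46 and 8.42 in EV and 9.03, 9.03 and 8.61 in PIM1, replicate 3 the lowest of its group, and rose by 0.54 (adjusted p = 0.0280). Ndufc1 rose by 0.39 (adjusted p = 0.0240). The groups did not overlap for any of these 7 genes.

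The Ndufa11 call was lost after quantile normalization (adjusted p = 0.0540) and without EV replicate 1 (0.0782) or PIM1 replicate 1 or 2 (0.102 and 0.103). The Ndufc1 call was lost after quantile normalization (0.117) and cyclic loess (0.0598), without EV replicate 1 or 2 (0.0642 and 0.0537) and without any 1 of the PIM1 arrays (0.0589 to 0.0694). Ndufb11, another membrane arm subunit, read 2.39, 3.26 and 4.24 in EV and 4.15, 4.07 and 3.92 in PIM1. The EV arrays scattered over almost 2 units, the difference of 0.75 was not called, and it passed without EV replicate 3 (1.22, adjusted p = 0.00926). The membrane arm genes Ndufb8, Ndufa13, Ndufb3, Ndufc2, Ndufb5, Ndufb7 and Ndufs5 differed by -0.44 to -0.15 and Ndufa3 and Ndufa10 by 0.07 and 0.15, none of them called.

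In the matrix arm, Ndufa9, which stabilizes the junction to the membrane arm, read 8.80, 8.77 and 8.62 in EV and 7.97, 8.03 and 8.09 in PIM1. The PIM1 arrays were all lower, and Ndufa9 fell by 0.70 (SE 0.10, adjusted p = 0.00138). Among 8 subunits of the NADH-oxidizing module 1 rose (12.5%) and 0 fell, beside 16.1% and 10.9% over all genes. Ndufv3 rose by 0.37 from 6.79 ± 0.10 to 7.15 ± 0.06 (adjusted p = 0.0281), a call lost after quantile normalization (0.120) and cyclic loess (0.0789) and without EV replicate 1 or 2 (0.0685 and 0.0745) or any 1 of the PIM1 arrays (0.0617 to 0.104). The NADH- and flavin-binding subunit Ndufv1 differed by -0.19 (-0.40 to 0.02) and its partner Ndufv2 by -0.06. Ndufs1, Ndufs4, Ndufa6 and Ndufa7 differed by 0.25, 0.23, 0.27 and 0.36, Ndufa2 and Ndufa12 by 0.04 and 0.02. Ndufa7 passed without PIM1 replicate 3 (0.57, adjusted p = 0.0461).

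Complex II, succinate dehydrogenase, links the citric acid cycle to the chain through a matrix pair (Sdha and Sdhb) on a membrane anchor (Sdhc and Sdhd). Of its 4 members 2 rose (50%) and 0 fell, beside 16.1% and 10.9% over all genes. For genes of like brightness these shares were 30.1% and 16.1%. Both anchor genes rose and neither gene of the matrix pair was called. Sdhd read 8.01, 8.31 and 8.11 in EV and 8.94, 8.71 and 8.74 in PIM1, and Sdhc read 8.26, 8.15 and 8.01 in EV and 8.53, 8.50 and 8.69 in PIM1. The groups did not overlap for either gene, as was so for 66.7% of the genes of like brightness. Sdhd rose by 0.65 (SE 0.119, adjusted p = 0.00466) and Sdhc by 0.43 (SE 0.110, adjusted p = 0.0217). The Sdhc call was lost without EV replicate 3 (0.0619) or any 1 of the PIM1 arrays (0.0504 to 0.0671).

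The flavoprotein Sdha read 9.22, 9.18 and 9.21 in EV and 9.05, 9.14 and 9.14 in PIM1, and Sdhb, which carries the iron-sulfur clusters, read 7.52, 7.69 and 7.65 in EV and 7.77, 7.78 and 7.68 in PIM1. Sdha was slightly lower on each PIM1 array, whereas the arrays overlapped for Sdhb. Their differences were -0.09 (-0.30 to 0.12) and 0.12 (-0.10 to 0.35). The difference between anchor and matrix pair was not tested. Citrate synthase, the matrix enzyme often used as a measure of mitochondrial content, read 8.89, 9.13 and 9.17 in EV and 9.59, 9.61 and 9.45 in PIM1 for its gene Cs. All PIM1 arrays were higher, and Cs rose by 0.48 (SE 0.114, adjusted p = 0.0154), a call lost without PIM1 replicate 1 (0.0606) or 2 (0.0637).

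Complex III, which hands electrons from ubiquinol to cytochrome c, had 0 members rising and 1 falling (12.5%) among 8. Over all genes 16.1% rose and 10.9% fell, and among genes of like brightness 30.1% and 16.1%. Cyc1, the cytochrome c1 that docks cytochrome c, read 7.86, 7.78 and 7.89 in EV and 7.63, 7.45 and 7.43 in PIM1. The groups did not overlap, and Cyc1 fell by 0.34 (SE 0.101, adjusted p = 0.041). This call was lost without any 1 of the 6 arrays (adjusted p = 0.0533 to 0.134). The core subunit genes Uqcrc1 and Uqcrc2 differed by -0.17 and 0.23, and Uqcrfs1, the Rieske iron-sulfur protein, by 0.01 (-0.22 to 0.23). Of the small subunits, Uqcrh and Uqcr11 differed by 0.41 and 0.44 (adjusted p = 0.0567 and 0.0697), and Uqcrb and Uqcrq by -0.12 and -0.25. Uqcrh passed without EV replicate 3 (0.50, adjusted p = 0.0445), and both Uqcrh and Uqcr11 passed with trended and robust variance (0.0229 and 0.0416).

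The transcript of cytochrome c, a protein that carries electrons to complex IV and starts caspase activation when released, was lower in PIM1. Cycs read 10.32, 9.95 and 10.12 in EV and 9.68, 9.45 and 9.37 in PIM1, without overlap, and fell by 0.63 (SE 0.133, adjusted p = 0.00942). It had 5 probe sets. Beside the brightest, 3 others were also lower, with differences of -0.85, -1.53 and -1.53 (adjusted p = 0.0123, 0.00106 and 0.00106 over all probe sets), the last 2 with identical values on each array. The dimmest, at 4.04 in EV and 4.18 in PIM1, had a difference of 0.14 (0.549).

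Probe sets of the same gene gave different sizes in other members too. For 10 members there was more than 1 probe set. The dimmer probe set of Atp5d had a difference of 2.57 (SE 0.455, adjusted p = 0.0111 with all probe sets tested), against 0.46 for the brightest. It was dimmer over the 6 arrays but not in PIM1, where its mean was 8.02 against 7.63. Its PIM1 arrays were spread, at 8.47, 8.66 and 6.94. Dimmer probe sets of Atp5g2, Atp5h and Ndufa11 had differences of 0.51, 0.66 and 0.91 (adjusted p = 0.0142, 0.0199 and 0.0405 over all probe sets). Under that same test their brightest probe sets, at 0.17, 0.35 and 0.54, were not called (0.296, 0.0625 and 0.0642). The dimmer probe set of Ndufa8 differed by 1.08 (0.106). The dimmer Cox5b probe set differed by -0.38, opposite in sign to the brightest, and neither was called. For Atp5e and Ndufa12 both probe sets were not called. Genes of this family have processed pseudogene copies, and the files used here do not say which copy a probe set reads.

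**Figure D4:**
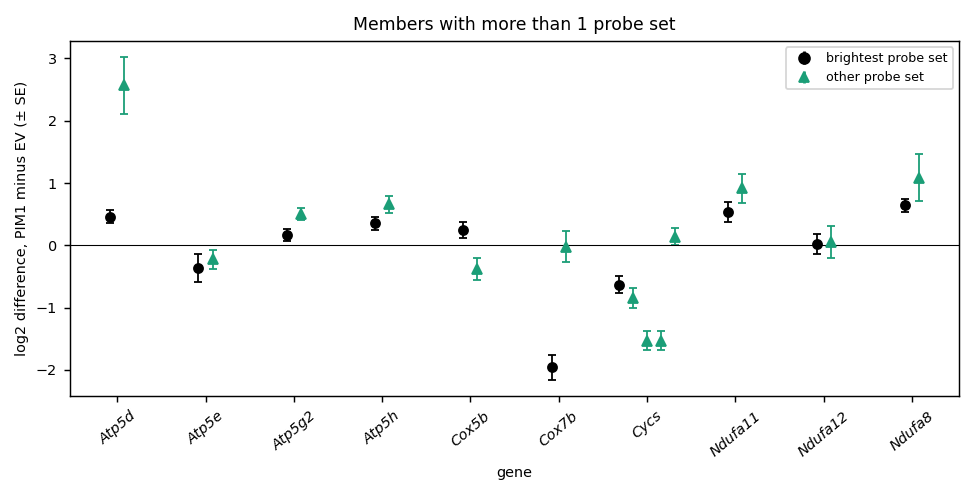
Difference PIM1 minus EV with its standard error (log2, vertical axis) for each probe set of the 10 members with more than 1, the brightest as a circle and others as triangles. The probe sets of Cox7b, at -1.96 and -0.02, and of Atp5d, at 0.46 and 2.57, differ most in size.

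Upstream sequences are shown for the 3 largest falls and the 3 largest rises that were called under each alternative tested and had 1 promoter in the table used, since these members mark the ends of the range. They are the 250 bases before the RefSeq transcript start in GRCm38.p6, printed 5′ to 3′ on the gene's strand. Capitals mark matches, on either strand, to GCATGC (the core of the NRF-1 motif), CCGGAAG (GABP and other ETS factors), TCAAGGTCA (oestrogen-related receptors), CACGTG (E-box) or ACGTG (core of the hypoxia response element, also within the E-box). The full NRF-1 motif searched is the core with GC on either side. NRF-1, GABP and oestrogen-related receptors are known regulators of respiratory genes.

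Cox7b, Atp5l and Atp5k fell, and Ndufs7, Sdhd and Ndufa8 rose.
Cox7b (chrX:106015450-106015699, plus strand): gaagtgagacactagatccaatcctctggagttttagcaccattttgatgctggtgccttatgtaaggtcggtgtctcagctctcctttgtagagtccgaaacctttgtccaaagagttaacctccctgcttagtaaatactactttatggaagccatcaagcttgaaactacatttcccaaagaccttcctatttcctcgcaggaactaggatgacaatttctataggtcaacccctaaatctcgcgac
Atp5l (chr9:44920743-44920992, minus strand): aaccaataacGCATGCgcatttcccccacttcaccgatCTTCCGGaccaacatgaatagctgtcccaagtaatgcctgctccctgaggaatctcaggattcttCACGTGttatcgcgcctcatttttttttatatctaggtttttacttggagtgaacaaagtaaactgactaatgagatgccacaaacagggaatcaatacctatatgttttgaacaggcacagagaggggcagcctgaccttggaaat
Atp5k (chr5:108434400-108434649, minus strand): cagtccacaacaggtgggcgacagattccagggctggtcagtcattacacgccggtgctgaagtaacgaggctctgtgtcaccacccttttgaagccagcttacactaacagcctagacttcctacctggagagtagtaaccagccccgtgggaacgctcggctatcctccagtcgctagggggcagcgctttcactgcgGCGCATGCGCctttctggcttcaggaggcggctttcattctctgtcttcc
Ndufs7 (chr10:80249199-80249448, plus strand): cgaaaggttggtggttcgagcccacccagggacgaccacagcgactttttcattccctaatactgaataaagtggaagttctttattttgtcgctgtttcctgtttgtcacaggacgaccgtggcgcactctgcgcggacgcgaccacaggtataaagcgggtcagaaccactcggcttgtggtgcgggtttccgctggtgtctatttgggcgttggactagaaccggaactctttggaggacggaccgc
Sdhd (chr9:50603850-50604099, minus strand): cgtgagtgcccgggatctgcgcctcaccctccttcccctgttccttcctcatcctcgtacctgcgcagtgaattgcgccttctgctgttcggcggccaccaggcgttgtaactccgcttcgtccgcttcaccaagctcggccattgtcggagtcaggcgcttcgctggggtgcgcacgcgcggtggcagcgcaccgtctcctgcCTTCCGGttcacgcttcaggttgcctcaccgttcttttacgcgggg
Ndufa8 (chr2:36049339-36049588, minus strand): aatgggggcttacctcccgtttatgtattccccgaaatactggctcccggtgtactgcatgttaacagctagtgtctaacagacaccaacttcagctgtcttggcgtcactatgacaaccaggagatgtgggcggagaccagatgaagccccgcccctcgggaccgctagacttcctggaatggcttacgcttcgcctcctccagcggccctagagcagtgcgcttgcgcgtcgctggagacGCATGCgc

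The Atp5k window held the full NRF-1 motif 50 bases before the start, and Atp5l held the core 240 bases before it, a CCGGAAG match at 212 and an E-box at 147. Sdhd had a CCGGAAG match at 46 bases and Ndufa8 the NRF-1 core at 8 bases before the start. The letters searched were in neither the Cox7b nor the Ndufs7 window. Of the 81 members 66 had a promoter in the table. The NRF-1 core was in 12 of these 66 (18.2%) and in 7.62% of all 27025 genes with one, CCGGAAG in 12 (18.2%) and in 7.83%, and the full NRF-1 motif in 4 (6.06%) and in 0.877%. By direction, the NRF-1 core was in 3 of 13 members that rose, 3 of 10 that fell and 6 of 43 not called, and CCGGAAG in 3, 2 and 7 of them. ACGTG was in 15 of 66 (22.7%) and in 18.5% of all genes, and by direction in 1 of 13 that rose, 4 of 10 that fell and 10 of 43 not called. Differences in these counts were not tested. CACGTG was in 6 (9.09%) and 6.86%, and TCAAGGTCA in 1 (1.52%) and 0.422%. A match describes letters only.

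Genes that feed electrons to the chain were read beside its subunits from lists chosen by function. Their counts stand beside 16.1% higher and 10.9% lower over all genes, and 29.4% and 14.7% among the 11090 brightest. Among 11 measured genes of pyruvate entry, the pyruvate dehydrogenase complex and its regulators, 6 rose (54.5%) and 0 fell, with a median difference of 0.63, and 5 of the 6 kept their call in each alternative. Mpc1, a subunit of the mitochondrial pyruvate carrier, read 7.84, 7.66 and 7.86 in EV and 9.34, 9.52 and 9.25 in PIM1. The groups lay far apart, and Mpc1 rose by 1.58 (SE 0.113, adjusted p = 3.18e-05 by limma). Pdhb, a subunit of the dehydrogenase itself, rose by 0.75, Pdk2, a kinase that switches it off, by 0.78, and Pdp2, a phosphatase that switches it on, by 0.74 (adjusted p = 0.00296, 0.000862 and 0.00335). The other rises were Pdk1 and Pdk4, kinases like Pdk2, by 0.63 and 0.81 (0.00349 and 0.00407), and Pdk1 kept its call in 13 of 14 alternatives. The subunit genes Pdha1, Dlat and Pdhx were not called, nor were Pdk3 and Pdp1. These genes were named after their values were seen.

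Of 12 citric acid cycle genes 6 rose (50%) and 1 fell (8.33%), with a median of 0.33, and 3 of the 6 rises kept their call in each alternative. Dld, named after its value was seen, kept its call in 4 of 14. Dlst of the oxoglutarate dehydrogenase complex rose by 0.72, Suclg2 of succinyl-CoA ligase by 0.57, the isocitrate dehydrogenase gene Idh2 by 0.51 and the malate dehydrogenase gene Mdh2 by 0.48 (adjusted p = 0.00307, 0.00293, 0.00537 and 0.00933). The Suclg2 call was lost with the mean over its probe sets (0.0774). Suclg1, the partner of Suclg2, fell by 0.31 (adjusted p = 0.0462), and its call was lost without any 1 of the 6 arrays (0.0707 to 0.166). Suclg1 was chosen after its value was seen. Among 19 genes of other electron entry and ubiquinone synthesis 4 rose (21.1%) and 3 fell (15.8%), and 3 of the rises and 1 of the falls kept their call in each alternative. Sqor, which oxidizes sulfide, rose by 2.21 from 5.87 ± 0.08 to 8.07 ± 0.01 (adjusted p = 2.35e-06), and the ubiquinone synthesis genes Coq8b and Coq5 rose by 0.88 and 0.87. Gpd2, the glycerol phosphate dehydrogenase of the inner membrane, fell by 0.78 (adjusted p = 0.000549).

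Assembly factors, which build the complexes without staying in them, rose in 16 of 45 cases (35.6%) and fell in 3 (6.67%), with a median of 0.19. Of the 16 rises 6 lost their call in some alternative, namely Ecsit, Cox19, Cox15, Cox14, Uqcc3 and Ndufaf3, which kept it in 3, 3, 6, 8, 8 and 11 of 14. Uqcc1 of complex III rose by 1.07, Coa3 and Coa5 of complex IV by 1.01 and 0.82, and Tmem126b of complex I by 0.95 (adjusted p = 0.000124, 0.000369, 0.00152 and 0.000249). The 3 that fell, named like those 6 after their values were seen, were Ndufaf2 (-0.72, adjusted p = 0.0208), Tmem70, which serves ATP synthase (-0.59, 0.0122), and Lrpprc, which stabilizes mitochondrial messenger RNA (-0.42, 0.0292). Ndufaf2 lost its call without EV or PIM1 replicate 3 (0.0571 and 0.0508), Tmem70 without PIM1 replicate 1 (0.0516), and Lrpprc without EV replicate 2 or 3 (0.0657 and 0.0809) or any 1 of the PIM1 arrays (0.0620 to 0.110).

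Among 17 regulators of mitochondrial biogenesis 1 rose and 1 fell (5.88% each, median 0.05). Pprc1, a coactivator related to PGC-1, fell by 0.52 from 8.04 ± 0.03 to 7.53 ± 0.09 (adjusted p = 0.00535), and Twnk, the helicase of mitochondrial DNA, rose by 0.49 (0.00617). Tfb2m and Ppargc1b differed by 0.55 and -0.30 (0.0621 and 0.107), Tfb2m passed with the mean over its probe sets (adjusted p = 0.000837), and Ppargc1b passed without EV replicate 1 (-0.41, adjusted p = 0.0344). Among 9 genes listed as hypoxia-linked 5 rose (55.6%) and 1, Ndufa4l2, fell (11.1%), with a median of 0.60, and 4 of the 5 rises kept their call in each alternative. This list overlaps others, as Pdk1 is also counted with the pyruvate genes, and Ndufa4l2 and Cox4i2 are members. Its counts take no account of the direction in which each gene moves in hypoxia, and a response to hypoxia was not tested. Bnip3, a mitophagy receptor, rose by 1.30, Fam162a by 0.89, the repressor gene Mxi1 by 0.78 and the iron-sulfur scaffold gene Iscu by 0.60 (adjusted p = 0.000153, 0.0024, 0.00242 and 0.00348).

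Of 11 carriers and channels 1 rose and 1 fell (9.09% each). Vdac3, an outer membrane channel, rose by 0.89 (adjusted p = 0.000333), and Slc25a3, which brings phosphate in for ATP synthase, fell by 0.40 (0.0172). The Slc25a3 call was lost without EV replicate 3 (0.0510) or PIM1 replicate 1 or 2 (0.0582 and 0.0679). Ucp1 and Slc25a14 differed by -0.43 and 0.30 (0.0532 and 0.0735), and Ucp1 passed without EV replicate 2 (-0.54, 0.0252). The 13 subunits of mitochondrial DNA were not analysed here. These lists were chosen with earlier results of the data known, and whether they differ from the subunits was not tested.

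**Figure D5:**
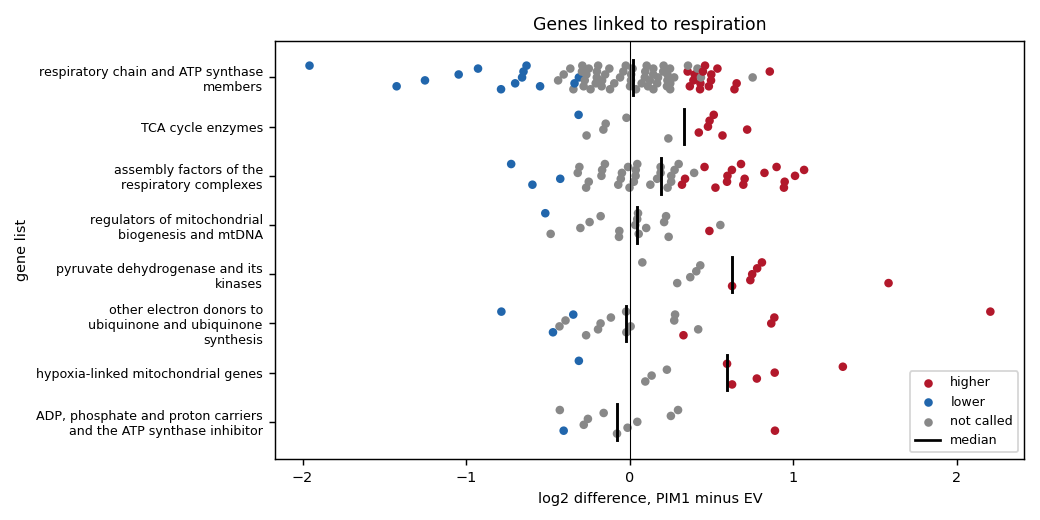
Difference PIM1 minus EV (log2, horizontal axis) of each gene in the member set and in the related lists (vertical axis), with the median of each as a black line. The medians run from -0.08 for the carriers to 0.63 for pyruvate dehydrogenase and its kinases, with 0.02 for the members.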

How the data were processed

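RNA from 6 samples, 3 EV and 3 PIM1, was measured on 1 Affymetrix whole-transcript mouse array each. Per the labels' protocols, the GeneChip WT PLUS kit made cDNA from 500 ng of RNA. The deposited values were taken as log2 signals from their range (0.34 to 13.0). The authors' log base, background correction, summarization and normalization were not given in the sources used here, and the submitters' processing notes name Affymetrix Expression Console. The array medians were 3.50 ± 0.014 (EV) and 3.40 ± 0.016 (PIM1), and nothing was scaled again. The number of arrays limits the precision, and no detection call was used.

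Gene names came from the platform annotation. Of 41345 probe sets 23521 had 1 symbol, 1814 several and 16010 none, and 23328 of those with 1 matched RefSeq by identifier. The brightest probe set over the 6 arrays was used where a gene had several. The test was the moderated one of limma 3.58.1 (R 4.3.3), fitted with lmFit on group alone and passed to eBayes. It was two-sided, and p-values were adjusted by Benjamini-Hochberg across 22180 genes, with 0.05 as threshold. The procedure was tested on simulated data. Members and lists were chosen with earlier results of these data known. Named with array values were, per complex, up to 4 called members of largest difference in each direction, Cycs, Cyc1, Cs, the Sdh genes and the tissue-restricted isoforms. From each list up to 4 genes of smallest p were named, most of them by their differences and adjusted p-values alone. Muscle, brown adipocyte, leukocyte, endothelial, germ cell and prostate luminal markers were read beside the fibroblast and epithelial ones. Of these, 0 of 5 leukocyte and 0 of 4 endothelial markers were called, 0 rose and 1 fell among 5 muscle, 4 brown adipocyte and 4 germ cell markers each, and 1 of 3 prostate luminal markers rose. A planned comparison of proteins was not made, as no protein sequences were used here. Alternatives were the variance model, 3 normalizations, brighter genes only, probe set handling, a replicate block and leaving out each array.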

Additional observations from a re-analysis of the deposited data

How the results depend on the processing

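Of the 28 members called, 16 (11 lower and 5 higher) kept their call and direction under each of the 14 alternatives in which they were tested, and 0 called members changed sign under any. The 15 rises became 8 when all 41345 probe sets were tested singly, where 8.99% of all probe sets rose. That setting changes both the number of tests and the fitted variance. With 1 array left out the rises became 5 to 14. They were 6 without PIM1 replicate 1 and 5 without PIM1 replicate 2, where 12.4% and 12.2% of all genes rose. With trended and robust variance they became 22 of 81, where 17.8% of all genes rose. Among the brighter genes alone they became 20 of 70, where 34.5% of genes rose. The 13 falls became 11 to 13 over all alternatives, where 6.6% to 18.7% of the genes or probe sets tested fell. Over all genes, those higher ranged from 2704 to 3249 with 1 array left out and those lower from 1463 to 2224, with 1490 without PIM1 replicate 1 and 1463 without PIM1 replicate 2. The median difference of the members was -0.0044 after quantile normalization, 0.0089 after cyclic loess and 0.00095 to 0.13 with 1 array left out, the highest without PIM1 replicate 3. That of all genes was 0.0052 after quantile normalization and 0.0121 after cyclic loess, above the members in both. With 1 array left out it was -0.054 to -0.044, below the members.

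With the replicate block, 11 members rose and 11 fell, and 6 calls were lost (Ndufv3, Sdhc, Cyc1, Cox7a2l, Ndufa4l2 and Atp5h). In that setting 14.5% of all genes rose and 9.48% fell. The same-numbered arrays deviated with correlations of 0.0558, -0.0314 and 0.00875, so the numbers were not taken as pairs.

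Members near 0 changed sign without a call. After quantile normalization these were Ndufa2 (-0.0405), Ndufa12 (-0.0877), Ndufa3 (-0.00436), Uqcrfs1 (-0.14), Cox8b (0.0127) and Atp5j (-0.0584), and after cyclic loess Ndufa2 (-0.0262), Ndufa12 (-0.0711), Uqcrfs1 (-0.0879), Cox8b (0.00888) and Atp5j (-0.00382). Averaging probe sets gave -0.0647 for Cox5b. With 1 array left out the differences were -0.14 to 0.0482 for Ndufv2, -0.0539 to 0.15 for Ndufa2, -0.0804 to 0.17 for Ndufa12, -0.25 to 0.0517 for Ndufs5, -0.0457 to 0.0501 for Uqcrfs1, -0.0916 to 0.23 for Cox4i2, -0.033 to 0.25 for Cox6a2, -0.0789 to 0.0479 for Cox7b2, -0.20 to 0.17 for Atp5g1 and -0.10 to 0.0351 for Atp5mpl. The cause was not tested.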

Other observations

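Subunit genes read only by probe sets that also carry another gene's name were left out of the members, and their values belong to no single gene. The brighter probe set of Cox6c with the predicted gene Gm6265 read 9.30, 9.11 and 9.23 in EV and 10.40, 10.35 and 10.42 in PIM1, without overlap, and differed by 1.18 (adjusted p = 0.000665 by limma over all probe sets). The dimmer one differed by 0.42 (0.0465). The probe set of Uqcr10 and Gm6293 read 6.01, 5.86 and 5.87 in EV and 4.89, 5.22 and 4.82 in PIM1, all PIM1 arrays lower, and differed by -0.94 (0.00524). That of Ndufb2 and Adck2 differed by -0.54 (0.0377). Probe sets of Ndufs6 with Ndufs6b differed by -0.47 and -0.17 (0.0909 and 0.406), and that of the Ndufb4 copies by 0.15 (0.412).

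For members with a probe set of their own, shared ones gave other values. The probe set of Ndufs5 and its pseudogene had a difference of 1.26 (adjusted p = 0.00702), against -0.15 for Ndufs5 alone, and that of Uqcrb and Gm10767 differed by 1.05 (0.0151), against -0.12 for Uqcrb alone.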
